A study of Homo sapiens with 66 samples.

Results

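The genes described here are 9 members of the poly(ADP-ribose) polymerase (PARP) family and DTX3L, the ubiquitin ligase that partners PARP9. They were chosen by gene symbol as 10 of the 57992 gene identifiers counted. They are ordered by role. PARP1, PARP2 and PARP3 are the DNA repair members, PARP9, DTX3L, PARP14, PARP12 and PARP10 are the interferon-linked members, and PARP4 and PARP8 belong to neither group.

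RNA was sequenced from 11 acute myeloid leukaemia (AML) cell lines: THP-1, NOMO-1, MOLM-13, MV-4-11, OCI-AML3, OCI-AML2, NB-4, HL-60, KASUMI-1, F-36P and MONO-MAC-6. Each line was either untreated or given etoposide for 24 hours, and the RNA methods name no vehicle for the untreated cells. There were 3 libraries per group, described as biological replicates, and 66 libraries in all. Etoposide is a topoisomerase II poison that leaves DNA double-strand breaks, and each line received the concentration that was its own IC50, so a difference between lines and a difference in concentration cannot be told apart. Serum share and supplements also differed by line, with granulocyte-macrophage colony stimulating factor for F-36P and insulin for MONO-MAC-6. These culture conditions cannot be told apart from the line either. Each line stands for 1 culture model of AML, and the cells of 3 wells were pooled for each library.

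PARP enzymes transfer ADP-ribose from NAD+ to proteins and nucleic acids. PARP1 and PARP2 are activated by DNA breaks, build chains of poly(ADP-ribose) that recruit repair factors, and are the targets of PARP inhibitors, while PARP3 attaches single ADP-ribose units and acts at double-strand breaks. PARP9, PARP10, PARP12 and PARP14 are known for antiviral and interferon responses: PARP9 binds DTX3L, PARP14 and PARP10 attach single ADP-ribose units, and PARP12 carries zinc fingers that bind RNA. PARP4 is the PARP of the vault particle, and PARP8 is a little-studied mono-ADP-ribosyltransferase.

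PARP9, DTX3L and PARP14 lie near one another on the long arm of chromosome 3 (GRCh38, gencode release 44). PARP9 is at chr3:122527924-122564577 on the minus strand and DTX3L at chr3:122564338-122575203 on the plus strand. These spans face away from each other and share 240 bases, of which 139 are exonic in both. PARP15 follows DTX3L after 2424 bases, and PARP14, at chr3:122680839-122730840 on the plus strand, follows PARP15 after a further 41791 bases. PARP12 is at chr7:140023749-140062951 on the minus strand. PARP1 is at chr1:226360210-226408154 on the minus strand, PARP2 at chr14:20343615-20357904 on the plus strand, and PARP3 at chr3:51942345-51948867 on the plus strand. PARP4 is at chr13:24420931-24512778 on the minus strand and PARP8 at chr5:50665899-50846519 on the plus strand. No annotated gene on the same strand overlaps an exon of any member. On the opposite strand, other genes share 521 exonic bases with PARP10, 161 with PARP8 and 97 with PARP2.

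Promoter windows from 250 bases before to 50 bases after a transcript start were read from RefSeq (GRCh38.p14) for 8 of the 10 members, and PARP10 and PARP4 had none to read. The windows were searched on both strands for GAAA, any 2 bases and GAAA again, the core of the interferon-stimulated response element (ISRE), a sequence bound by IRF factors. All 4 interferon-linked members with a window held it, against none of the 3 repair members and not PARP8. PARP9 and DTX3L hold it in the same shared site, so the 4 are not separate sites. Of all 35116 windows 3.57% held it, and so did 22 of the 30 interferon-stimulated genes with a window. The first share is per window, whereas a member or listed gene counted if any of its windows held the match, so these are unlike measures. A match is a run of letters and not a measured binding site. The stretches that hold the match are shown because the interferon-linked windows had it and the repair windows did not. Capitals mark the match, which in PARP9 and PARP12 lies on the other strand and so reads TTTC, 2 bases and TTTC. The PARP9 stretch, chr3:122564321-122564350 on the minus strand, also holds the start of DTX3L, with 37 bases between the starts of both genes. The PARP14 stretch is chr3:122680759-122680838 on the plus strand and the PARP12 stretch is chr7:140062952-140063031 on the minus strand.
PARP9 and DTX3L: ggcgcaaagTTTCAGTTTCgcttccctgga
PARP14: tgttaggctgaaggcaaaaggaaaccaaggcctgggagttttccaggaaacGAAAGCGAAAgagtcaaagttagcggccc
PARP12: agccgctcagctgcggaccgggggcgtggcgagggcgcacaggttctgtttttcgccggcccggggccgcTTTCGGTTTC
Counted from the transcript start, the match covered bases -41 to -32 in PARP9, -29 to -20 in PARP14 and -10 to -1 in PARP12. The PARP9 match is the same stretch of the genome as bases -6 to 4 of DTX3L.

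The libraries held from 17997404 to 24101670 reads on genes (median 20241014). The haematopoietic genes PTPRC and LAPTM5 and the myeloid genes CD33 and SPI1 were above 1 CPM (the read count scaled to the library's normalized total) in all 11 untreated lines, whereas CD68 was below 1 CPM in every line (how reads on genes that overlap it were counted was not tested) and MPO was at 0.966 CPM in F-36P, which instead had the highest GATA1. In OCI-AML2, whose etoposide libraries the study set aside for read quality, no gene passed the calling limits, so its members are given apart. The second etoposide library of F-36P stood apart from its replicates. In it all 35 interferon-stimulated genes and all 5 interferon-linked members were the lowest of the 3 treated libraries. The 35 genes summed to 2917 CPM there, against 6939 and 8715 CPM in the other treated libraries and 1307 to 1424 CPM in the untreated ones. The summed level of the repair members in the same 3 libraries was 598, 595 and 604 CPM.

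Before treatment PARP1, PARP4, PARP2 and PARP8 had the highest levels of the 10 members per kilobase of transcript. In CPM the median of PARP2 (41.7) was below those of PARP14 (53.0) and DTX3L (51.3). Per kilobase of transcript, the median level over lines was 131 CPM for PARP1, 22.8 for PARP2 and 4.63 for PARP3. It was 10.8 CPM per kilobase for PARP10, 8.90 for DTX3L, 6.89 for PARP14, 4.69 for PARP12 and 4.28 for PARP9, and 30.8 and 20.3 for PARP4 and PARP8. PARP1 was the most abundant of the 10 by this measure. All 10 members differed between the 11 lines in edgeR's quasi-likelihood F test over untreated libraries (the largest FDR was 6.7e-13), as did 99.4% of all genes tested, so the size of the differences says more than the test.

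PARP1, the main sensor of DNA breaks, varied 2.40-fold between lines. It was highest in F-36P at 914 ± 45.4 CPM (SD, n = 3, as for all levels here) and then fell in order through OCI-AML2 (873 ± 23.7), OCI-AML3 (755 ± 48.3), THP-1 (646 ± 19.2), NB-4 (549 ± 51.5), MV-4-11 (521 ± 2.43), NOMO-1 (517 ± 35.8), HL-60 (489 ± 47.5), KASUMI-1 (426 ± 12.7), MONO-MAC-6 (421 ± 6.60) and MOLM-13 (380 ± 25.4). The libraries of 5 of the 10 neighbouring pairs in that order overlapped, among them NB-4 with MV-4-11 and MV-4-11 with NOMO-1. PARP2, which shares the chain-building role of PARP1, varied 2.08-fold, from 25.6 ± 1.17 CPM in OCI-AML2 to 53.2 ± 1.73 CPM in NB-4, and 8 of its 10 neighbouring pairs overlapped. PARP3 ranged from 5.07 ± 0.339 CPM in THP-1 to 30.01 ± 0.485 CPM in NB-4. Over the 11 line means of log2(CPM + 1), PARP1 and PARP2 had a Pearson r of -0.60, a description over lines measured in the same normalization.

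The spread between lines differed from member to member. The SD over lines of log2(CPM + 1) was 2.20 for PARP14, 1.49 for PARP12, 0.72 for PARP9, 0.57 for DTX3L and 0.50 for PARP10, against a median of 0.57 over 13673 genes. It was 0.75 for PARP3, 0.43 for PARP1 and 0.27 for PARP2. PARP9 was highest in F-36P at 43.9 ± 4.66 CPM, followed by MONO-MAC-6 (27.0 ± 0.555), THP-1 (21.3 ± 0.664) and NOMO-1 (15.1 ± 0.828). The next were MOLM-13 (13.1 ± 0.471), HL-60 (13.04 ± 0.486), OCI-AML2 (12.9 ± 0.422), KASUMI-1 (12.3 ± 1.52) and NB-4 (10.6 ± 1.85), which overlapped from one to the next, and last came MV-4-11 (8.96 ± 0.532) and OCI-AML3 (6.32 ± 0.559). PARP9 libraries of 5 of 10 neighbouring pairs overlapped. PARP10 spanned 19.1 ± 2.95 CPM in NB-4 to 66.9 ± 6.64 CPM in THP-1, with 9 of 10 neighbouring pairs overlapping.

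PARP14, a large macrodomain protein, had no reads in any of the 6 HL-60 libraries. A count of 0 over the 3 untreated libraries allows up to 0.0515 CPM, for counting error only. NB-4 came next at 1.10 ± 0.0426 CPM, and the other 9 lines lay between 26.4 ± 2.17 CPM in OCI-AML3 and 102 ± 25.1 CPM in F-36P. DTX3L, which lies upstream of PARP14 in the same cluster, was also lowest in NB-4 (19.7 ± 3.20 CPM) and HL-60 (23.2 ± 0.9003 CPM), whose libraries overlapped, and reached 70.1 ± 1.24 CPM in MONO-MAC-6. The Pearson r of DTX3L and PARP14 over the 11 line means was 0.93 (Spearman's rho 0.92), and it was 0.82 over the 9 lines other than HL-60 and NB-4. PARP15, the gene between them, was also under 0.1 CPM in HL-60 and NB-4, with 0.0332 ± 0.0289 and 0.0159 ± 0.0276 CPM, and it had no reads in untreated NOMO-1, where PARP14 was at 31.9 ± 1.08 CPM.

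PARP12 was close to absent in MV-4-11, at 0.133 ± 0.0235 CPM and 8 reads over 3 libraries. In the other lines it lay between 5.14 ± 0.991 CPM in OCI-AML3 and 49.1 ± 4.40 CPM in F-36P, 368-fold above MV-4-11. MV-4-11 had instead the highest PARP8, at 475.5 ± 17.4 CPM, which was 25.7-fold above the 18.5 ± 6.61 CPM of F-36P. PARP4 ranged from 68.4 ± 5.63 CPM in F-36P to 275.6 ± 9.84 CPM in MOLM-13.

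The genes most like PARP1 over the 11 untreated line means of log2(CPM + 1) were TATDN2 (r = 0.90), CAMK1D (0.89) and C8orf88 (0.89). Those most like PARP9 were MTRF1L (r = 0.93), PCMT1 (0.91) and RRAGC (0.89). DTX3L, the binding partner, was at place 738 for PARP9, with r = 0.61 and rho = 0.79. These are descriptions over 11 points that share 1 normalization.

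The etoposide comparison asked how each member's RNA changed in each line. A gene is said to have risen or fallen in a line where the FDR of edgeR's quasi-likelihood test was below 0.05, and to have been induced or repressed where the fold change was also above 2. Log2 fold changes are etoposide over untreated, with the standard error (SE) of the fit, and CPM values from here on are normalized within each line. In these bulk libraries a change in the share of cells of one kind cannot be told apart from a change per cell.

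The interferon-linked members rose almost everywhere. Of their 49 tested pairs of gene and line, over the 10 lines without OCI-AML2, 19 were induced (38.8%, against 11.1% of all gene and line pairs) and none was repressed (against 3.96%). They rose in 43 pairs (87.8%, against 27.7%) and fell in none (against 24.4%). The median log2 fold change was 0.78, where the median of all genes lay between -0.03 and 0.09 in each line. Treated libraries lay wholly above the untreated ones in 45 of the 49, but the share of all genes with such separation was not computed, so this count has no background. The 3 repair members were induced in 3 of 30 pairs, rose in 15 and fell in 10, with a median of 0.36. PARP4 and PARP8 were induced in 0 of 20 pairs, rose in 1 and fell in 4. Without F-36P the interferon-linked members were induced in 14 pairs and the repair members in 3. In F-36P 24.3% of all genes tested were induced. The share of all pairs without that line was not computed, so the 14 and 3 have no background. Leaving out only the F-36P library that stood apart gave 19 and 3. Both alternatives were chosen after seeing the data.

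**Figure D1:**
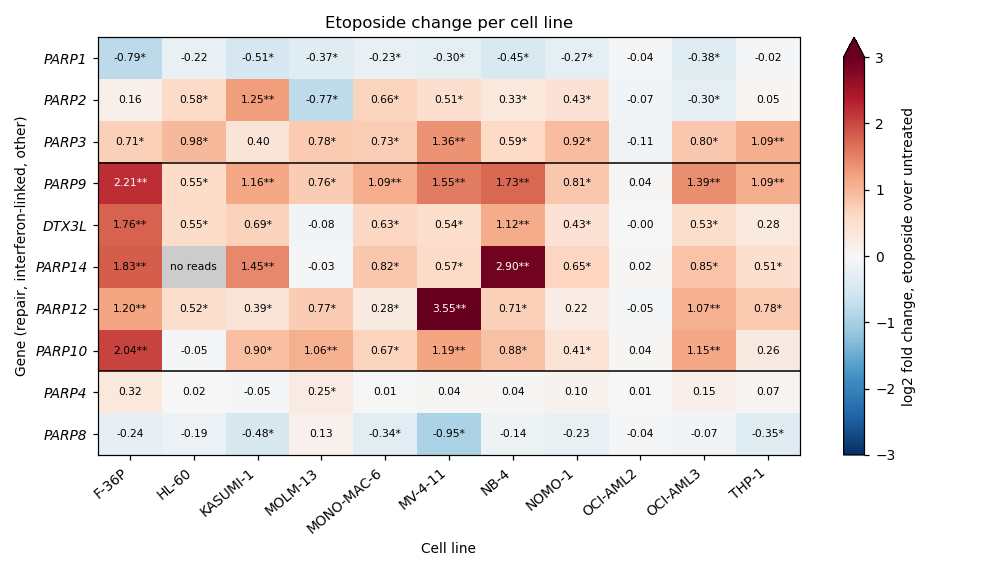
Log2 fold change of the 10 genes (rows, in 3 role groups) in 11 cell lines (columns), from blue for lower to red for higher after etoposide, with the colour scale ending at 3. One star marks an FDR below 0.05 and a pair of stars a fold change above 2 as well. The interferon-linked rows are above 0 in 10 lines apart from DTX3L and PARP14 in MOLM-13 (-0.08 and -0.03), PARP10 in HL-60 (-0.05) and the untested PARP14 in HL-60, the PARP1 row is negative throughout, PARP2 holds both colours, and the OCI-AML2 column is pale, between -0.11 and 0.04.

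PARP9 rose in all 10 lines and was induced in 7, and its treated libraries lay above the untreated ones in every one of the 10. In F-36P the untreated libraries held 45.5, 46.1 and 54.9 CPM and the treated ones 249, 102 and 275 CPM. The groups did not overlap, although the second treated library was far below the others, and the log2 fold change was 2.21 (SE 0.320, edgeR FDR 0.000208), or 2.54 (SE 0.152) without that library. In NB-4 PARP9 went from 10.53, 9.76 and 13.5 CPM to 38.4, 34.7 and 38.4 CPM, a log2 fold change of 1.73 (SE 0.128, edgeR FDR 3.34e-08). In MV-4-11 it went from 10.2, 9.27 and 9.22 CPM to 29.7, 26.8 and 27.9 CPM, a log2 fold change of 1.55. All treated libraries of both lines lay far above their highest untreated one. OCI-AML3, KASUMI-1, MONO-MAC-6 and THP-1 were the other lines with induction, with log2 fold changes of 1.39, 1.16, 1.09 and 1.09. The smallest rise was in HL-60, from 14.4, 13.5 and 14.6 CPM to 20.8, 18.6 and 22.6 CPM (log2 fold change 0.55, edgeR FDR 0.00342), and MOLM-13 and NOMO-1 had 0.76 and 0.81. The mean over 10 lines was 1.24 with an SD of 0.50. An exact sign-flip permutation test over the 10 lines, run on all 10588 genes tested in each of them, gave a two-sided p of 0.00195, the smallest that flips of 10 values allow, and an FDR of 0.00991. By that test 17.6% of all genes were higher and 25.7% lower.

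DTX3L rose in 8 lines and was induced in 2, F-36P (log2 fold change 1.76, SE 0.266) and NB-4 (1.12, SE 0.124). In F-36P it went from 78.2, 73.3 and 78.6 CPM to 276.5, 133 and 310 CPM, and the value without the second treated library was 2.05 (SE 0.125). In MOLM-13, where PARP9 rose, DTX3L held 50.7, 48.9 and 50.4 CPM untreated and 49.0, 45.5 and 45.0 CPM treated, a log2 fold change of -0.08 (edgeR FDR 0.356). In THP-1 the change of 0.28 did not pass (edgeR FDR 0.0787). The mean over lines was 0.64 (SD 0.50, higher in 9 of 10 lines, sign-flip permutation FDR 0.0147).

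PARP14 was tested in 9 lines, since HL-60 had no reads after etoposide either, and it rose in 8 of them. It was induced in NB-4, F-36P and KASUMI-1. NB-4, where it started close to 0, went from 1.21, 1.16 and 1.14 CPM (65 reads) to 8.61, 8.56 and 9.05 CPM (581 reads), a log2 fold change of 2.90 (SE 0.176, edgeR FDR 5.29e-09). Its treated level there was still below the untreated level of the 9 other lines with reads. F-36P went from 83.8, 117 and 139 CPM to 451, 270.0 and 403 CPM (log2 fold change 1.83, SE 0.242, or 2.02 without the second treated library). KASUMI-1 went from 40.2, 36.6 and 26.5 CPM to 102, 74.4 and 95.4 CPM (log2 fold change 1.45, SE 0.166). The 5 other lines in which it rose had log2 fold changes from 0.51 in THP-1 to 0.85 in OCI-AML3. MOLM-13 stood out as with DTX3L: it held 54.8, 55.5 and 59.4 CPM untreated and 61.8, 53.4 and 48.1 CPM treated, a log2 fold change of -0.03 (edgeR FDR 0.795).

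PARP12 rose in 9 lines and was induced in 3. The largest value was in MV-4-11, where 0.158, 0.113 and 0.156 CPM became 1.47, 1.44 and 2.33 CPM. This rests on 8 untreated and 128 treated reads, and scaled to the reads on genes the treated share was 13.3 times the untreated one (95% interval 6.53 to 31.4, exact binomial, covering counting error only), and the fitted log2 fold change was 3.55 (SE 0.408, edgeR FDR 1.34e-07). The untreated libraries were below the minimum count of 10, so the pair passed the filter on low counts only through its treated libraries. It is counted in the induced pairs above and in the mean below. After etoposide PARP12 in MV-4-11 was still below its untreated level in the other lines. It was also induced in F-36P (log2 fold change 1.20, SE 0.202, or 1.41 without the second treated library) and OCI-AML3 (1.07, SE 0.142). NOMO-1 was the line where it did not pass, at 0.22 (SE 0.115, edgeR FDR 0.132). The mean over lines was 0.95 (SD 0.97, higher in 10 of 10 lines, sign-flip permutation FDR 0.00991).

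PARP10, which lies on chromosome 8, rose in 8 lines and was induced in F-36P (log2 fold change 2.04), MV-4-11 (1.19), OCI-AML3 (1.15) and MOLM-13 (1.06). In F-36P it went from 46.0, 42.5 and 38.7 CPM to 157, 91.1 and 232 CPM, with a value of 2.32 (SE 0.176) without the second treated library. In MOLM-13, where DTX3L and PARP14 did not pass, PARP10 went from 39.6, 53.7 and 50.2 CPM to 82.5, 107 and 104 CPM, and the groups did not overlap. In HL-60 and THP-1 the log2 fold changes were -0.05 (edgeR FDR 0.849) and 0.26 (edgeR FDR 0.260), and the treated libraries overlapped the untreated ones. The call count of PARP10 turned on the limit of 2-fold: it was 4 lines here and 6 with scaling by library size alone. The mean over lines was 0.85 (SD 0.58, higher in 9 of 10 lines, sign-flip permutation FDR 0.0147).

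**Figure D2:**
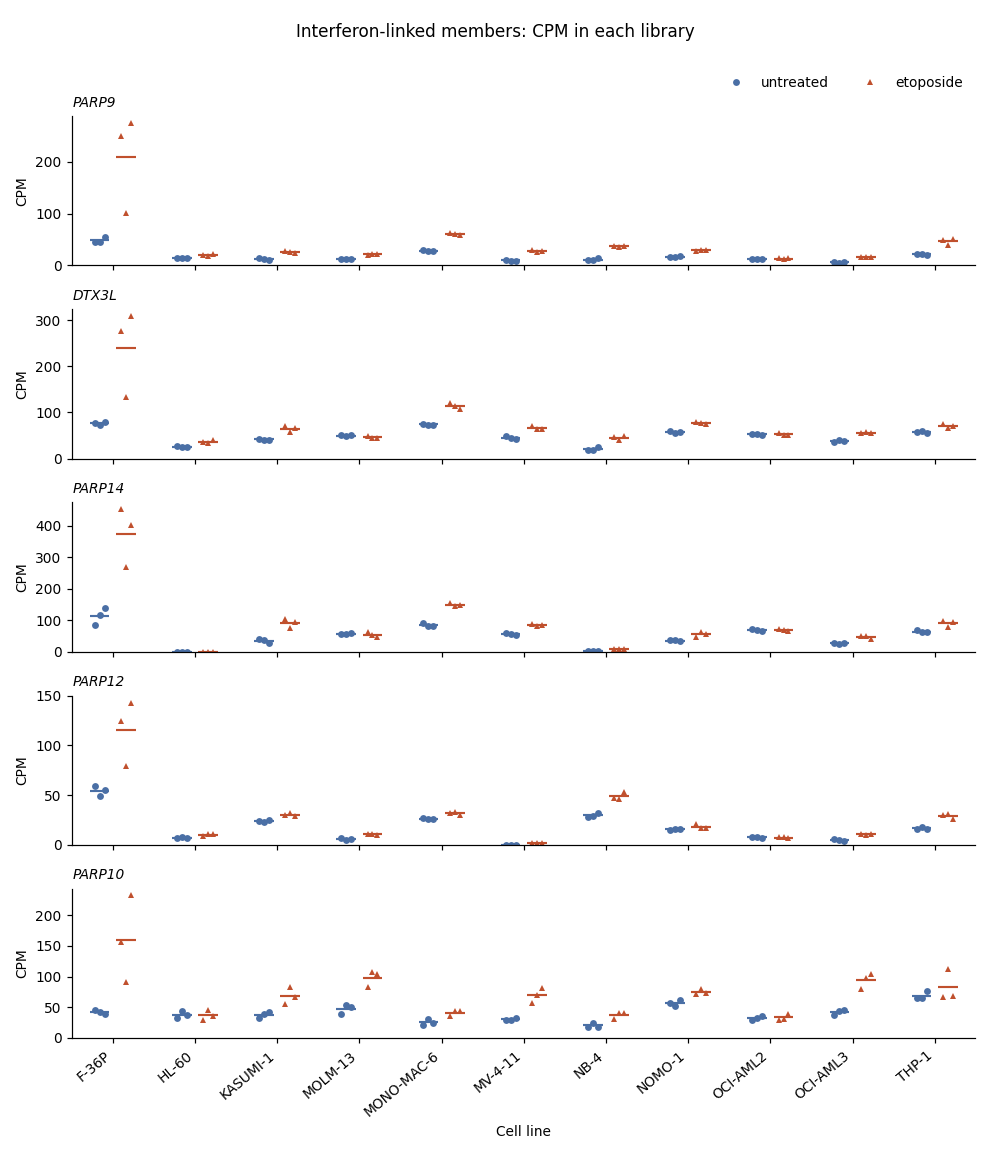
CPM, normalized within each line, of the 5 interferon-linked members (panels, each axis from 0) in every library of 11 lines, with blue circles for untreated, red triangles for etoposide and a bar at the mean of 3. F-36P reached the highest treated levels in each panel with 1 low triangle, the second treated library (102 CPM for PARP9 against 249 and 275), HL-60 has no PARP14, and OCI-AML2 shows no shift.

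The repair members did not move together. PARP1 was lower in all 10 lines and fell in 8 of them, in none by more than 2-fold. In F-36P it went from 1072, 1004 and 970.3 CPM to 544, 540.2 and 547 CPM (log2 fold change -0.79, SE 0.0912, edgeR FDR 5.24e-05), and the value without the second treated library was -0.78. In KASUMI-1 it went from 430, 418 and 437 CPM to 292, 292 and 286 CPM (log2 fold change -0.51, SE 0.0672). The libraries of both lines were clearly separated, while HL-60 (-0.22, edgeR FDR 0.0997) and THP-1 (-0.02, edgeR FDR 0.890) did not pass. The mean over 10 lines was -0.35 (SD 0.20, sign-flip permutation FDR 0.00991). In NOMO-1 (-0.27) PARP1 did not pass with a replicate block (edgeR FDR 0.0616), with library size alone (0.0586) or without untreated library 2, etoposide library 2 or etoposide library 3 (0.0997, 0.0562 and 0.0639). Scaling by library size alone moved the median of all genes up by 0.10 to 0.25 on the log2 scale in HL-60, MONO-MAC-6, MV-4-11, KASUMI-1, NB-4 and F-36P, and PARP1 then fell in 7 lines and was higher in 1, at 0.04.

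PARP2 moved in opposite directions. It rose in 6 lines and fell in 2. In KASUMI-1 it went from 40.8, 45.0 and 39.9 CPM to 92.4, 100.1 and 96.0 CPM, the only induction (log2 fold change 1.25, SE 0.0852, edgeR FDR 2.34e-06). In MOLM-13 it went from 41.6, 42.0 and 38.8 CPM to 23.4, 23.4 and 24.0 CPM, a log2 fold change of -0.77 (SE 0.0742, edgeR FDR 1.77e-05). OCI-AML3 also fell, from 34.4, 34.6 and 35.02 CPM to 29.4, 29.8 and 25.6 CPM (log2 fold change -0.30, edgeR FDR 0.0175), but did not pass with a replicate block (edgeR FDR 0.0608) or without the first or second untreated library (0.0583 and 0.0533). In these 3 lines treated and untreated libraries did not overlap. MONO-MAC-6, HL-60, MV-4-11, NOMO-1 and NB-4 rose by 0.66, 0.58, 0.51, 0.43 and 0.33 on the log2 scale. The mean over lines was 0.29 with an SD of 0.55, and the sign-flip permutation FDR of 0.208 did not pass.

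PARP3 rose in 9 lines, with log2 fold changes above 0 in all 10. It was induced in MV-4-11, from 7.52, 8.53 and 9.22 CPM to 20.4, 20.6 and 24.0 CPM (log2 fold change 1.36, SE 0.108, edgeR FDR 4.29e-10), and in THP-1, from 4.91, 5.62 and 5.13 CPM to 10.7, 11.9 and 10.8 CPM (1.09, SE 0.157, edgeR FDR 4.43e-05). Both sets of treated libraries were well clear of the untreated ones. KASUMI-1, where PARP2 rose most, was the line in which PARP3 did not pass (0.40, SE 0.162, edgeR FDR 0.0579). The mean over lines was 0.84 (SD 0.27, sign-flip permutation FDR 0.00991), and in HL-60 (0.98) the value was close to the limit of 2-fold.

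PARP8 fell in 4 lines, KASUMI-1, MONO-MAC-6, MV-4-11 and THP-1, of which THP-1 did not pass in 6 alternatives, 4 of them without 1 library (edgeR FDR 0.0699 to 0.188). In MV-4-11 it went from 528, 497 and 497.5 CPM to 291, 263 and 237 CPM (log2 fold change -0.95, SE 0.0610, edgeR FDR 1.75e-11). That was the line with the highest untreated level, and its treated libraries were all below its untreated ones. The mean over lines was -0.28 (SD 0.29, lower in 9 of 10 lines, sign-flip permutation FDR 0.0192). PARP4 rose in MOLM-13 (log2 fold change 0.25, edgeR FDR 0.00576) and passed in no other line. Its mean was 0.10 (SD 0.11, sign-flip permutation FDR 0.0352), a call lost without etoposide replicate 1 (FDR 0.268) and without untreated replicate 2 (0.0939) or 3 (0.150) in every line.

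**Figure D3:**
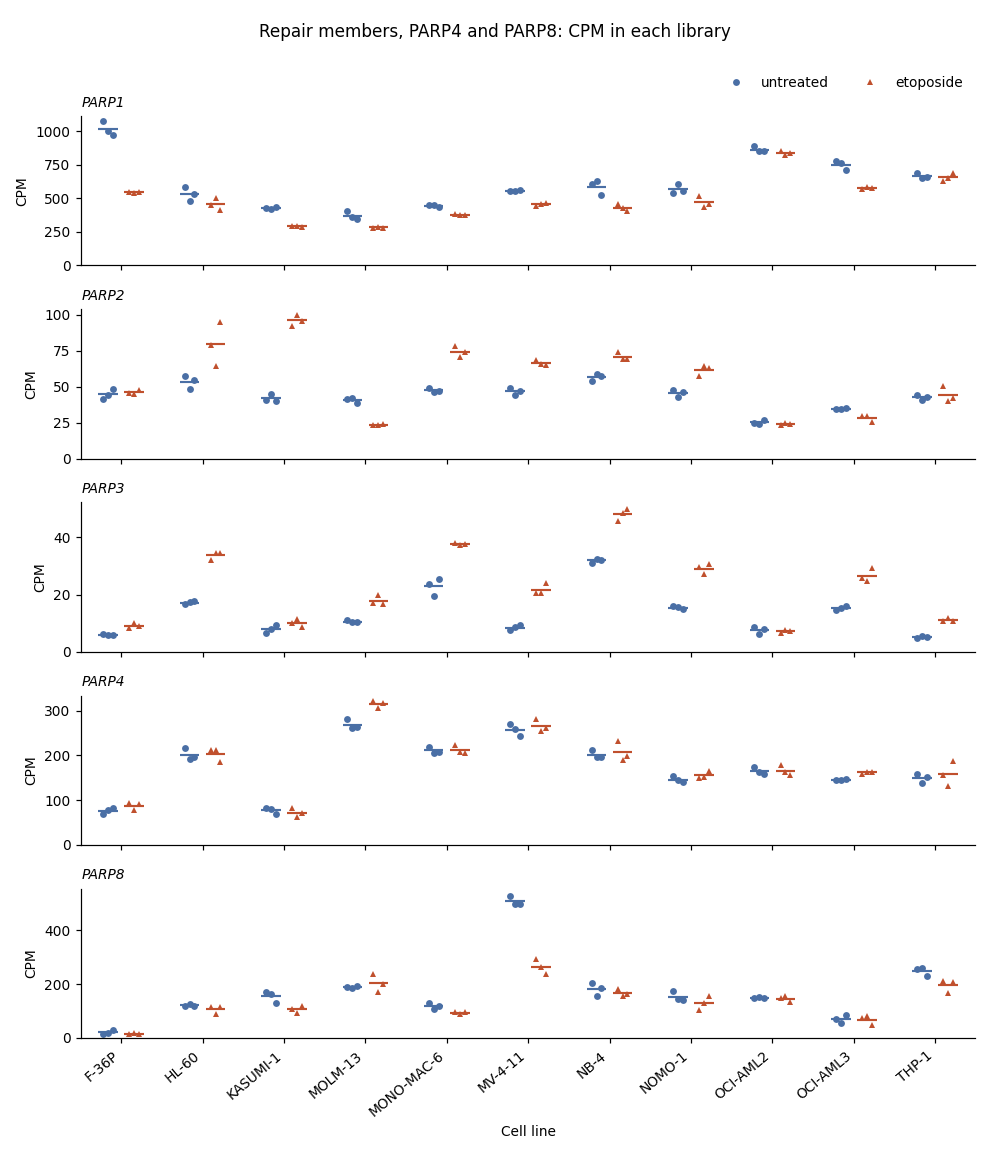
CPM, normalized within each line, of PARP1, PARP2, PARP3, PARP4 and PARP8 (panels, each axis from 0) in every library of 11 lines, with blue circles for untreated, red triangles for etoposide and a bar at the mean of 3. PARP1 falls from about 1015 to 544 CPM in F-36P, PARP2 rises in KASUMI-1 and falls in MOLM-13, and PARP8 falls most in MV-4-11.

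Whether the change itself differed between lines was tested by the interaction of line and treatment over 60 libraries of the 10 lines. It passed for 9 of the 10 members, as for 74.5% of all genes tested. The smallest FDR was that of PARP2 (1.17e-17), the gene with changes in both directions, followed by PARP14 (1.13e-12) and DTX3L (3.40e-10). PARP4 did not pass (FDR 0.161). HL-60 was in the fit but had no PARP14 reads, so it holds no information on the change of that gene.

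In OCI-AML2 none of the 10 members passed, as against 0.0221% of all genes. Their log2 fold changes lay between -0.11 and 0.04. PARP9 held 12.8, 13.1 and 12.3 CPM untreated and 13.6, 11.9 and 13.6 CPM treated, so the groups overlapped. The whole line had 0 genes induced or repressed by edgeR's quasi-likelihood test, its exact test and DESeq2, with 456 of 13604 genes at an unadjusted p below 0.05 in the first.

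The other genes of interferon signalling are given beside the members. Of 35 interferon-stimulated genes, 312 of 350 pairs of gene and line passed the filter on low counts and were tested. Among the tested pairs 177 were induced (56.7%, against 11.1% of all pairs) and none was repressed, with a median log2 fold change of 1.18. Without the limit of 2-fold, 244 tested pairs rose and 8 fell, where 27.7% of all pairs rose and 24.4% fell. A gene near 0 before treatment is tested only where its treated libraries have reads. The share and the median therefore hold for the tested pairs only and depend in part on the filter. OAS3 and IFI6 were induced in 9 of the 10 lines and OAS2 in 8. OAS3 and OAS2 make the messenger that activates RNase L, and IFI6 is an interferon-induced membrane protein. Of 15 genes of interferon receptors and signalling, 30 of 149 pairs were induced (20.1%, against 11.1%), 92 rose and 1 fell, where 27.7% of all pairs rose and 24.4% fell. They were led by IRF7, a transcription factor for interferon genes (8 lines), USP18, which removes ISG15 and dampens the receptor (7 lines), and SOCS1, an inhibitor of JAK kinases (5 lines).

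Line by line, the counts of the interferon-linked members and of the list, over the genes tested in each line, are set side by side, with no test between them. In F-36P all 5 members and 32 of 35 listed genes were induced, against 24.3% of all genes tested there. In NB-4 the counts were 3 of 5 members and 25 of 32 genes (13.2% of all genes), in MV-4-11 3 of 5 and 20 of 29 (12.5%), and in OCI-AML3 3 of 5 and 7 of 27 (7.18%). In KASUMI-1 they were 2 of 5 and 29 of 31 (14.6%), in MONO-MAC-6 1 of 5 and 23 of 34 (8.53%), and in THP-1 1 of 5 and 20 of 34 (6.38%). In MOLM-13 1 of 5 members and 7 of 30 genes were induced (8.59%), in NOMO-1 0 of 5 and 8 of 33 (8.34%), and in HL-60 0 of 4 and 6 of 27 (5.34%).

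**Figure D4:**
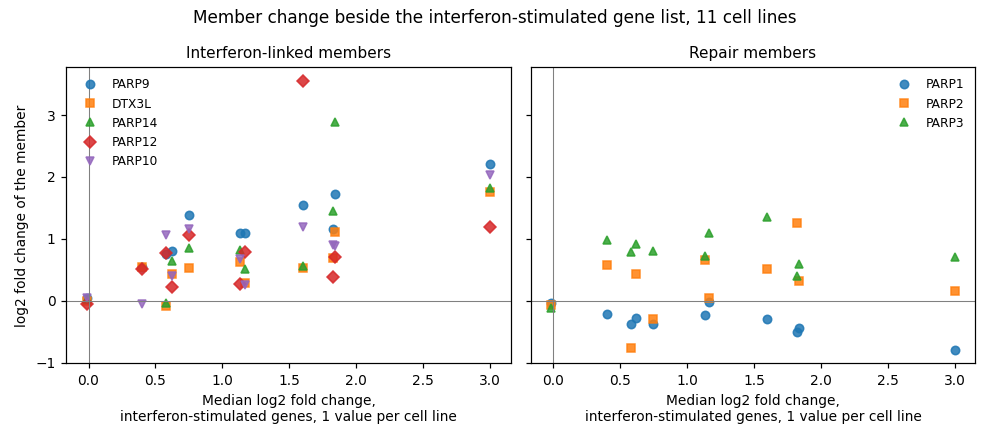
Log2 fold change of each member (vertical axis) against the median log2 fold change of the tested interferon-stimulated genes (horizontal axis), 1 point per gene and cell line, with interferon-linked members on the left and repair members on the right. The list medians run from -0.01 in OCI-AML2 to 3.00 in F-36P, where PARP9 and PARP10 reached 2.21 and 2.04 and PARP1 had its lowest value of -0.79.

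Over lines, the changes of pairs of interferon-linked members had a median Pearson r of 0.50 (10 pairs, from -0.14 to 0.82). Pairs of repair members had -0.04 (3 pairs, from -0.20 to 0.55), and those between a repair and an interferon-linked member -0.23 (15 pairs, from -0.83 to 0.66). Each r is over 10 lines, or 9 with PARP14, and both genes of a pair come from the same libraries. Without F-36P single values moved in both directions: DTX3L with PARP10 went from 0.58 to 0.04 and PARP1 with PARP9 from -0.69 to -0.35. DTX3L with PARP14 went from 0.79 to 0.92.

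RNA of the 4 interferon genes read was scarce, and other interferon genes were not looked at. IFNB1, the gene of interferon beta, had 24 reads over the 33 untreated libraries and 153 over the 33 treated ones. Of the latter F-36P held 79 (3 untreated), THP-1 28 (8 untreated), MONO-MAC-6 17 (2 untreated) and NB-4 13 (2 untreated). Of these 4 genes only IFNB1 in F-36P passed the filter on low counts, through its treated libraries, with a log2 fold change of 4.34. IFNL1 had 0 untreated reads and 154 treated ones, 150 of them in F-36P. IFNA1 went from 3 to 23 reads, 20 of the latter in NB-4, and IFNG from 0 to 9. In KASUMI-1 IFNB1 had 1 read untreated and 3 treated. Whether interferon RNA has a part in the changes of the members was not tested.

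Among the other members of the PARP family 2 of 77 tested pairs were induced (2.6%, against 11.1% of all gene and line pairs), 27 rose and 9 fell. TIPARP, a mono-ADP-ribosyltransferase of the aryl hydrocarbon receptor pathway, and PARP15 were each induced in 1 line, and PARP16 in none. Of 16 genes for ADP-ribose turnover and strand break repair, 15 of 156 pairs were induced (9.62%, against the same 11.1%), 3 repressed, 57 rose and 35 fell, where 27.7% of all pairs rose and 24.4% fell. The most often induced was APLF, which binds poly(ADP-ribose) in end joining, in 8 lines with a median log2 fold change of 1.14. NMNAT1 and NAMPT, which make the NAD+ that PARP enzymes use, were each induced in 3 lines.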

How the data were processed

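RNA of 11 AML cell lines, untreated or given etoposide, was sequenced single-end from a stranded mRNA kit. According to the methods and the submitters' processing notes, the authors checked reads with FastQC 0.11.5, aligned them to the GRCh38.p7 genome and gencode release 25 by STAR 2.5.3a, and deposited its counts of reads per gene, with no normalization. They used edgeR 3.20.1. Which strand column was deposited is not given in the sources used here. Reads were found on 338 of 523 genes that an opposite-strand exon covers in full, so the counting used strand.

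From the counts, CPM, fold changes and p-values were derived. After leaving out 45 copies on chromosome Y with 0 reads, 57992 identifiers entered, and 56948 were named by gencode release 44. Each line's 3 treated libraries were set against its 3 untreated ones by edgeR 4.0.16 in R 4.3.3 (filterByExpr, minimum count 10, minimum total 15, TMM normalization, quasi-likelihood test, Benjamini-Hochberg adjustment over all genes tested). The mean change was tested by exact sign flips over 10 lines, and line differences by F tests. Levels between genes were divided by the length of the Ensembl canonical transcript. DESeq2 1.42.0, other scalings, no filter, a replicate block and leaving out each replicate were alternatives. Python 3.11.15, numpy 2.4.6, pandas 2.3.3 and matplotlib 3.10.9 did the rest, and the tests were checked on simulated data.

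A second promoter motif was searched and is not reported here. The members and gene lists were chosen with earlier results of these data known. All 10 members are named, and of each other list the 3 genes called in most lines (ties by mean absolute log2 fold change), the interferon ligands, and for PARP1 and PARP9 the 3 genes with the highest r. Replicates differed beyond sampling noise in every group (chi-square per degree of freedom at least 2.05), and p-values measure the spread between the 3 libraries of a group.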

Additional observations from a re-analysis of the deposited data

Results flagged for a closer look

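The change of PARP12 in MV-4-11, 3.55 on the log2 scale, lay far from the other 9 lines, the nearest being F-36P at 1.20. The gap was 0.707 of the whole range, where Dixon's 95% critical value for 10 values is 0.466, and chance flags about 1 in 20 such groups. It is the line with 8 untreated PARP12 reads, where the gene passed the filter on low counts only through its treated libraries. Whether the low starting level has a part in the size of the fold was not tested. None of the other 9 members had such a value.

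The change after etoposide differed between the 10 lines by the interaction test of edgeR for 9 members. For PARP14, which had no reads in HL-60, that line holds no information on the change. The FDR was 1.40e-06 for PARP1, 1.17e-17 for PARP2, 1.88e-05 for PARP3 and 0.00443 for PARP8. It was 8.66e-08 for PARP9, 3.40e-10 for DTX3L, 1.13e-12 for PARP14, 3.85e-09 for PARP12 and 3.05e-07 for PARP10. Of these only PARP2 had lines that passed in both directions. The concentration of etoposide differed by line, so line and concentration cannot be told apart.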

How the results depend on the processing

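No value that passed its test changed direction under any alternative run. Without the limit of 2-fold the counts became those of all genes that passed: 59 induced and 14 repressed pairs for all members, 15 and 10 for the repair members, and 43 induced for the interferon-linked members. Leaving out 1 replicate in every line gave 21 to 25 induced and 0 to 1 repressed pairs for all members, the latter being PARP8 in MV-4-11 without the first etoposide library (-1.03). The mean change of PARP4 lost its call with no filter (0.077, FDR 0.0975), RLE scaling (0.083, FDR 0.0595), DESeq2 (0.083, FDR 0.0595) and without F-36P (0.072, FDR 0.0639), and without 1 replicate it lay between 0.061 and 0.138, losing the call without etoposide replicate 1 (0.061, FDR 0.268) or untreated replicate 2 (0.08, FDR 0.0939) or 3 (0.073, FDR 0.150). The mean of PARP8 lost its call with library size alone (-0.17, FDR 0.0913), under which PARP8 fell in 2 lines and PARP4 rose in 5. The cause was not tested. Interaction and basal results kept their side of the limit throughout. For single members in 1 line, 9 values moved past the 2-fold limit and 3 dropped below it, all of them values near 1 on the log2 scale. Of 73 single changes that passed FDR 0.05, 5 lost it in 16 of 876 values: PARP8 in THP-1 in 6 alternatives, PARP1 in NOMO-1 in 5, PARP2 in OCI-AML3 in 3, PARP8 in KASUMI-1 with library size alone (FDR 0.0687) and PARP12 in HL-60 without untreated replicate 3 (FDR 0.0551).

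Same-numbered libraries deviated together above 0.1 in all 3 pairs in NB-4 alone, which is a hint from the data and not from the labels. A fit with the replicate number as a block gave 22 induced and 0 repressed pairs, and 19 and 3 induced for the interferon-linked and repair members, as without the block. PARP1 in NOMO-1 (FDR 0.0616) and PARP2 in OCI-AML3 (FDR 0.0608) no longer passed FDR 0.05 with it. Depth limits PARP12 in MV-4-11, PARP14 in HL-60 and NB-4 and the interferon genes, which rest on few reads or none.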
